A study of Rattus norvegicus with 12 samples.

Results

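The miR-34 family of the rat consists of 3 hairpins, miR-34a, miR-34b and miR-34c, each cut into a 5p and a 3p arm, so that 6 mature miRNAs were looked for by name: rno-miR-34a-5p, rno-miR-34a-3p, rno-miR-34b-5p, rno-miR-34b-3p, rno-miR-34c-5p and rno-miR-34c-3p (written below without the species prefix). All 6 were among the 574 miRNAs of the authors' deposited heart table. Only miR-34b-3p was among the 367 of their exosome table. The study sequenced small RNA in 12 samples, 6 each from heart and serum of SD rats, and its design text describes a ligation of the left coronary artery for 30 min followed by 1 week of reperfusion. Each table compares a group headed M with a group headed CK. Neither the labels nor the headers say what M and CK stand for, which of them had the ligation, or which labelled sample belongs to which, and the age of the rats is not given either. Both names are kept as headed. The exosome table is taken to come from the serum samples, the only others in the series, and exosomes are small vesicles that cells release.

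The transcription factor p53, which halts the cell cycle or kills cells after DNA damage, switches on transcription of the miR-34 genes. The 5p arms are the guide strands studied most, and in human and mouse cells they repress cell-cycle and survival mRNAs such as those of CDK6, MET, BCL2 and SIRT1. miR-34b and miR-34c are made from 1 shared primary transcript, whereas miR-34a has a gene of its own. In mouse heart, miR-34a is known to increase with age and after infarction, and its inhibition has been studied as a means to limit damage to heart muscle. In the airway, brain and testis of mice, miR-34b and miR-34c act together with the related miR-449 in cells that carry motile cilia.

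The sequences show which arms can act on the same mRNAs. A miRNA finds its targets mainly through its seed, bases 2 to 8 from the 5′ end, which are in capitals here. The sequences are those of RefSeq (assembly GRCr8), in which all 6 members were matched by name.
miR-34a-5p: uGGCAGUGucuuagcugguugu
miR-34b-5p: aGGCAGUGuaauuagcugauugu
miR-34c-5p: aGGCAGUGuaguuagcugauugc
miR-449a-5p: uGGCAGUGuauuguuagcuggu
miR-34a-3p: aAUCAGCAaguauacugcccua
miR-34b-3p: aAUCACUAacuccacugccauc
miR-34c-3p: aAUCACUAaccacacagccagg

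The 3 miR-34 5p arms had 1 seed, GGCAGUG, which 5 of 693 rat mature miRNAs in this reference carry. The others with it belong to the miR-449 genes. miR-34b-3p and miR-34c-3p shared a second seed, AUCACUA, with no other mature miRNA, and the seed of miR-34a-3p was found in that arm alone. miR-34b-5p and miR-34c-5p were identical at 21 of 23 bases. The differences, counted from the 5′ end with miR-34b first, were A11G and U23C, so a read of either arm is told apart by few bases. Their 3p arms differed more, at 5 of 22 bases (U11C, C12A, U16A, U21G and C22G). How the authors treated reads that match several miRNAs is not given in the sources used here, so the split between miR-34b-5p and miR-34c-5p is uncertain.

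The hairpins below, from the same reference, carry the mature arms in capitals and show where both arms of each member come from. Mir34c and Mir34b are direct neighbours on 1 strand of the same chromosome in GRCr8, and Mir34a lies on another chromosome.
Mir34a: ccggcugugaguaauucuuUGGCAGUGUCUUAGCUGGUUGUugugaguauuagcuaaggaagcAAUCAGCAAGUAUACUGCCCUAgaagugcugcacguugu
Mir34b: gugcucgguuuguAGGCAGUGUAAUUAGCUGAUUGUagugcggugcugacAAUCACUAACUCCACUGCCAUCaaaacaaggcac
Mir34c: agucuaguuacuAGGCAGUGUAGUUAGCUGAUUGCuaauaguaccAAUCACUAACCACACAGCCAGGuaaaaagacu

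The deposited values are means over libraries of reads divided by a size factor, called normalized reads here. The whole reads of the separate libraries were recovered from them by arithmetic, which showed 3 libraries behind each mean. They carry numbers 1 to 3 in order of size factor, and no number can be tied to a labelled sample. The M libraries of heart held an estimated 2253000 to 5421000 miRNA reads each and the CK libraries 4059000 to 6610000. In the exosome table these estimates were 1855000 to 1961000 for M and 1696000 to 5328000 for CK. No source says that each library is a separate animal, and the spread behind every p-value may be technical. Heart M library 2 stood apart from the other M libraries in most results below.

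In heart, miR-34c-5p, miR-34c-3p and miR-34b-3p were 2.49 to 2.69 times as high in M as in CK in the authors' deposited table, while the factor was 1.20 for miR-34a-5p. Of the 6 members, 0 passed an adjusted p below 0.05 in the authors' own test (authors' deposited table), against 0.697% of all miRNAs, and in limma on the recovered libraries 0 of 4 did, against 0.733%. Before adjustment, p was below 0.05 for 1 member in the authors' deposited table, miR-34c-5p, which was higher in M like 4.18% of all heart miRNAs at that threshold. limma gave an unadjusted p below 0.05 for 2 of the 4 members it tested, miR-34c-5p and miR-34b-3p, against 23.4% of its 273 miRNAs. All 5 members with a finite fold were higher in M in the authors' deposited table. Their median log2 fold was 1.31, and it was 0.03 over the 510 heart miRNAs with a finite fold, of which 52.4% were higher. The arms of 1 hairpin, and both hairpins of 1 transcript, are not separate measurements. In tissue samples, fewer cells that hold a miRNA and less of it per cell cannot be told apart.

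miR-34c-5p, the guide arm of the cluster and the most abundant member by the mean over both groups, had 314, 710 and 305 normalized reads in the M libraries 1, 2 and 3, against 120, 191 and 193 in the CK libraries. Every M library lay above every CK library. This order was found for 16.8% of the 273 heart miRNAs that had recovered reads and averaged at least 10. Its mean was 443 ± 231 in M and 168 ± 41.9 in CK (SD of the levels, n = 3 each), 2.64 times as high. The log2 fold was 1.40 in the authors' deposited table, with p = 0.0384 and an adjusted p of 0.629. In limma the log2 difference was 1.31 ± 0.37 (SE), with a 95% interval of 0.48 to 2.14 and an adjusted p of 0.0934. M library 2 held 53.4% of the summed M levels, and without it the ratio of the means was 1.84 (log2 0.88). In the rank of all 574 heart miRNAs by mean, miR-34c-5p stood at place 153.

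miR-34b-3p, the abundant arm of the other hairpin of the cluster, had 65.8, 172 and 50.3 normalized reads in the M libraries, against 31.5, 42.0 and 42.6 in the CK libraries. Every M library lay above every CK library, as for 16.8% of the 273 heart miRNAs counted above, although M library 3 lay close to the highest CK library. The mean was 96.1 ± 66.4 in M and 38.7 ± 6.22 in CK (SD, n = 3 each), 2.49 times as high. The authors' deposited table gave a log2 fold of 1.31, p = 0.129 and an adjusted p of 0.839. Without M library 2 the log2 ratio of the means was 0.59. In limma the log2 difference was 1.10 with a 95% interval of 0.08 to 2.11 and an adjusted p of 0.201. Without M library 2 that interval was -0.22 to 1.37 (adjusted p = 0.435).

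miR-34c-3p, the scarce arm of miR-34c, rested on few reads, 5, 31 and 13 in the M libraries and 5, 9 and 12 in the CK libraries. Scaled for depth these were 10.6, 30.3 and 11.5 normalized reads in M and 5.25, 6.51 and 7.74 in CK, again with no overlap. The ratio of the means was 2.69 and 1.70 without M library 2. The authors' deposited table gave a log2 fold of 1.43, p = 0.0786 and an adjusted p of 0.793. Its limma interval was -0.04 to 2.35 on the log2 scale (adjusted p = 0.231).

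miR-34a-5p, the member best known from injured and ageing heart, had 183, 269 and 262 normalized reads in the M libraries, against 202, 202 and 193 in the CK libraries. M library 1 lay below all CK libraries and the other 2 M libraries above them, so the groups overlapped. The means were 238 ± 48.1 in M and 199 ± 5.16 in CK (SD, n = 3 each), 1.20 times as high. The authors' deposited table gave p = 0.415 and an adjusted p of 1.0. The 95% interval of its log2 difference in limma was -0.34 to 0.81 (adjusted p = 0.592).

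**Figure D1:**
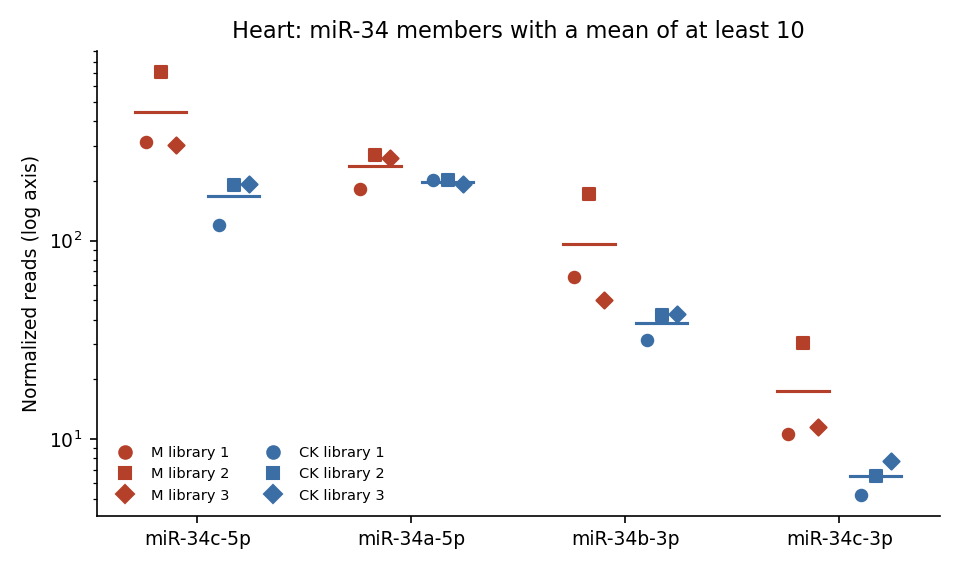
Normalized reads (log axis) of the 4 heart members with a mean of at least 10, in 3 M libraries (red) and 3 CK libraries (blue), with a line at each group mean. miR-34c-5p, miR-34b-3p and miR-34c-3p lie higher in every M library than in any CK library, with M library 2 (square) highest, while the groups of miR-34a-5p overlap.

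The remaining arms were near the limit of detection. miR-34b-5p had 3, 8 and 6 reads in the M libraries and 2, 10 and 2 in the CK libraries, and its groups overlapped (log2 fold 0.88, p = 0.472 in the authors' deposited table). miR-34a-3p was found with 3 reads in M library 2 and with 0 in the other 5 libraries, so no fold is given. miR-34b-5p and miR-34a-3p stood at places 389 and 523 of 574 by mean.

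**Figure D2:**
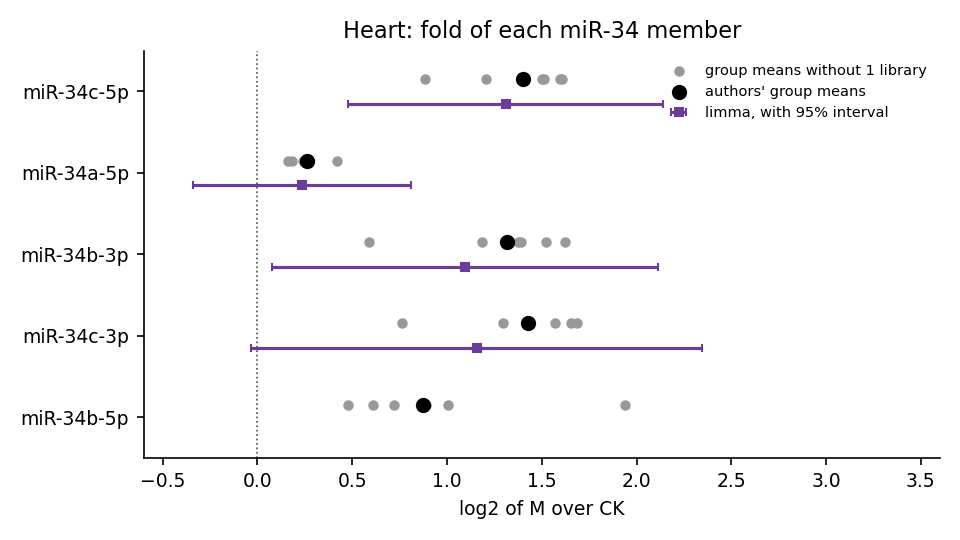
log2 of M over CK for the 5 heart members with reads in both groups, from the authors' group means (black), from the same means with 1 library left out (grey) and from limma with its 95% interval (purple; not fitted for miR-34b-5p, whose mean is under 10). The miR-34b and miR-34c arms sit to the right of miR-34a-5p, and their lowest grey points, 0.88, 0.59 and 0.76 for miR-34c-5p, miR-34b-3p and miR-34c-3p, are those without M library 2.

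Because a ratio of 2 members within a library needs no size factor, ratios were used to test whether the cluster and miR-34a-5p differed from M to CK by unequal amounts. These 5 ratios were chosen after the levels had been seen. miR-34c-5p over miR-34a-5p was 1.72, 2.64 and 1.16 in the M libraries, against 0.594, 0.946 and 1.0 in the CK libraries. miR-34c-5p thus outnumbered miR-34a-5p in each M library and in only 1 CK library, where 300 reads stood against 299. The mean log2 ratio was 0.80 ± 0.59 in M and -0.28 ± 0.42 in CK (SD, n = 3 each), a difference of 1.08 ± 0.42 (SE). In a two-sided exact permutation test this had p = 0.10, the smallest p that 3 against 3 libraries allow, and an adjusted p of 0.25 over the 5 ratios. Without each library in turn the difference was 0.78 to 1.37.

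miR-34c-3p over miR-34a-5p differed by 1.03 ± 0.44 (SE) on the log2 scale, with no overlap between the groups (exact permutation p = 0.10, adjusted 0.25), and by 0.64 without M library 2. For miR-34b-3p over miR-34a-5p the difference was 0.88 ± 0.53 (SE), and the groups overlapped (exact permutation p = 0.30, adjusted 0.50). It was 0.45 without M library 2. Within the cluster the ratios varied less. miR-34b-3p stood at 0.209, 0.243 and 0.165 of miR-34c-5p in the M libraries and at 0.263, 0.220 and 0.220 in the CK libraries, a log2 difference of -0.20 ± 0.19 (SE, exact permutation p = 0.40, adjusted 0.50). The corresponding difference for miR-34c-3p over miR-34c-5p was -0.05 ± 0.15 (SE, exact permutation p = 0.70). With 3 libraries a group these p-values do not show that the cluster members differed alike.

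**Figure D3:**
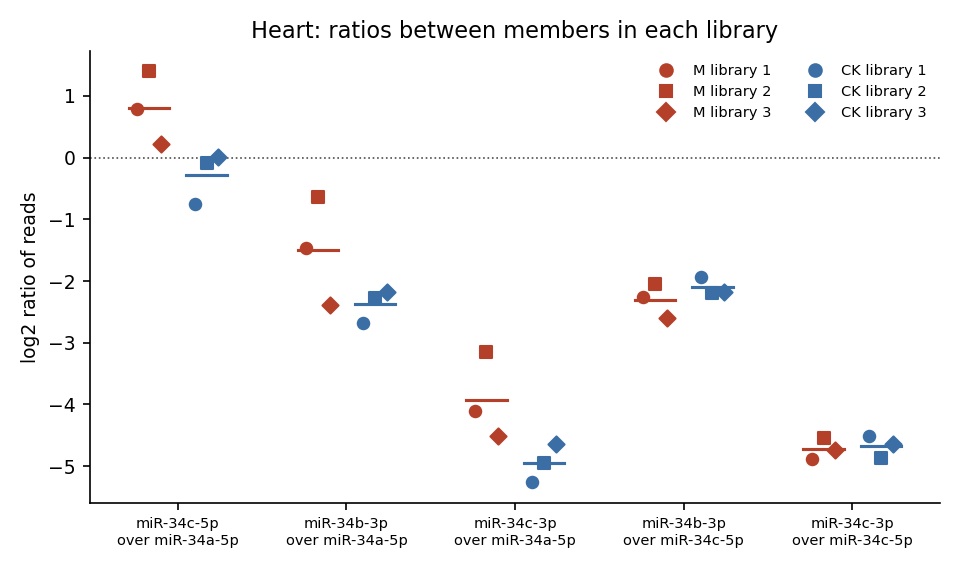
log2 ratio of reads of 2 members within each heart library, 3 M libraries (red) left of 3 CK libraries (blue), with a line at each group mean. The mean ratios of cluster arms to miR-34a-5p are higher in M (differences of 1.08, 0.88 and 1.03), while those between cluster arms differ by -0.20 and -0.05.

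The make-up of the family was read from the same libraries. miR-34c gave 56.0%, 62.1% and 49.9% of all miR-34 reads in the M libraries and 34.7%, 44.0% and 45.9% in the CK libraries. miR-34a gave 31.5%, 22.8% and 41.3% in M and 56.0%, 45.0% and 44.0% in CK. For neither hairpin did the shares overlap between the groups, which was not tested apart from the ratios above. Shares within a library add up to the whole, so those of miR-34a and miR-34c are not separate results. They also restate in large part the ratio of miR-34c-5p to miR-34a-5p. The mean share of miR-34c was 14.5 percentage points higher in M, and 11.4 without M library 2. miR-34b made up 8.76% to 15.1% of the reads in M and 9.33% to 11.0% in CK. The whole family came to 273, 1218 and 719 reads in the M libraries and 343, 620 and 679 in the CK libraries. Scaled for depth, the 6 members summed to 579, 1192 and 634 normalized reads in M and to 360.2, 449 and 438 in CK, a ratio of means of 1.93, and of 1.46 without M library 2.

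The share of each arm differed widely between the hairpins, while a difference between M and CK could not reach a p below 0.10 with 3 libraries a group. Of the reads of miR-34c, 96.2% were of the 5p arm over all 6 heart libraries (1897 of the 5p and 75 of the 3p arm). For miR-34a the share was 99.8% (1428 and 3 reads). As the reads were assigned, miR-34b had the opposite preference, with 6.90% from the 5p arm (31 and 418 reads). Among assigned reads, the arm with the GGCAGUG seed was thus the minor one of miR-34b and the major one of miR-34a and miR-34c. The 5p sequences of miR-34b and miR-34c differ at only 2 bases, and how reads matching both were assigned is not known. The low 5p share of miR-34b is therefore uncertain.

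By library, the 5p share of miR-34b was 8.82%, 4.35% and 9.52% in M, against 6.25%, 14.7% and 2.94% in CK. Means were 7.57% ± 2.81 in M and 7.97% ± 6.07 in CK (SD, n = 3 each, exact permutation p = 1.0). The 95% Wilson intervals of single libraries were wide, 3.05% to 23.0% in M library 1 for example, and cover counting error only. The difference between the means was -0.40 percentage points, and it was 2.97 without CK library 2, 1.21 without M library 2 and -2.92 without CK library 3. For miR-34c the 5p share averaged 96.3% ± 0.42 in M and 96.2% ± 0.46 in CK (SD, n = 3 each, exact permutation p = 0.70).

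**Figure D4:**
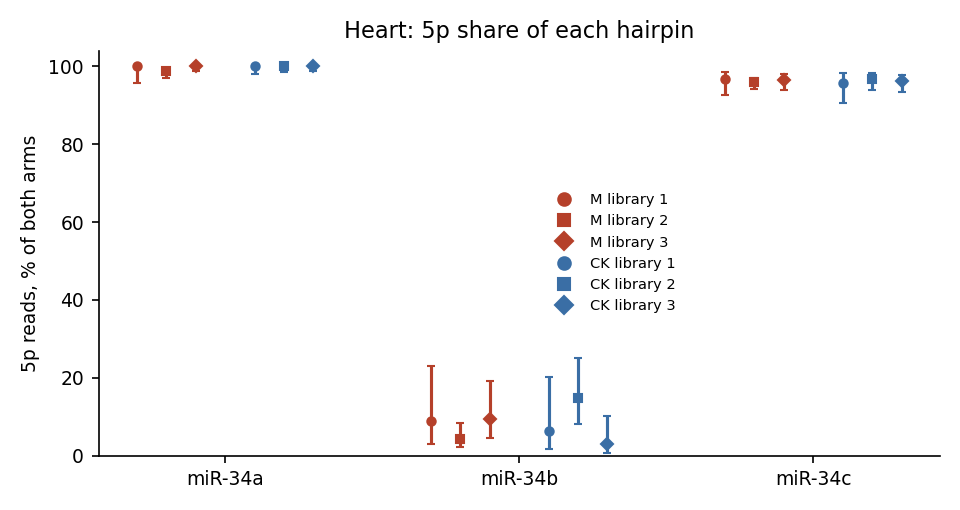
Share of 5p reads among the reads of both arms for each hairpin, in percent, by heart library (M red, CK blue), with 95% Wilson intervals. All miR-34a and miR-34c libraries lie above 95%, and all miR-34b libraries lie below 15%.

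In the exosome table, miR-34b-3p was lower in M than in CK, the other way round from heart. It had 0, 0 and 11.1 normalized reads in the M libraries 1, 2 and 3, against 70.5, 100.2 and 244 in the CK libraries. These came from 0, 0 and 9 reads in M and 54, 134 and 587 in CK. The groups did not overlap, with every M library below every CK library, an order found for 9.31% of the 247 exosome miRNAs that had recovered reads and averaged at least 10. The authors' means were 3.70 in M and 138 in CK, a ratio of 0.0267 (authors' deposited table: log2 fold -5.22, p = 0.0335, adjusted p = 0.286). It did not pass the adjusted threshold, which 3.81% of exosome miRNAs passed. Before adjustment, 8.17% of them were lower in M at p below 0.05, and miR-34b-3p was 1 of these. A count of 0 allows up to 3 reads, or 3.91 normalized reads in M library 1 and 3.71 in M library 2.

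In limma, on levels plus 1, the log2 difference of exosome miR-34b-3p was -5.72 with a 95% interval of -10.8 to -0.65 (adjusted p = 0.273). At an adjusted p below 0.05 limma passed 0% of the 247 exosome miRNAs, and 13.0% had an unadjusted p below 0.05, miR-34b-3p among them. All its M reads came from M library 3, without which it is at 0 in M and has no finite fold. With each of the other 5 libraries left out in turn the log2 ratio of its means was -5.54 to -4.53. Uneven reads were found for other scarce exosome miRNAs too. Of the 305 with recovered reads in both groups, 64 had reads in 1 library only. Reads in all 3 CK libraries but in at most 1 M library were found for 15, miR-34b-3p included. The opposite pattern, reads in all M libraries and in at most 1 CK library, was found for 3. Among 117 exosome miRNAs with a mean of 10 to 200 and a finite fold, 74 were lower in M and the median log2 fold was -0.41. Only 1 of the 117, miR-34b-3p itself, had a log2 fold as low as that of miR-34b-3p. In the same range of means 30 more were listed at 0 in M and 5 at 0 in CK, with no finite fold.

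**Figure D5:**
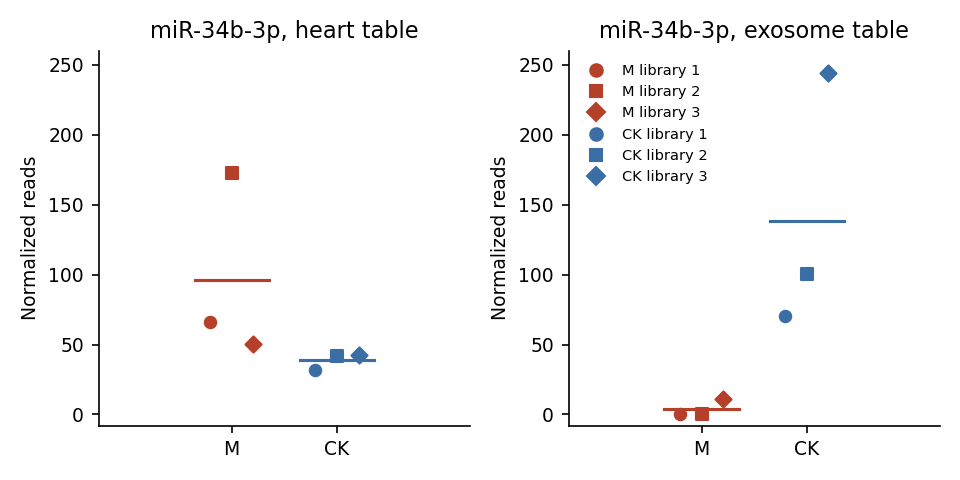
Normalized reads of miR-34b-3p in heart (left panel) and exosome (right panel), 3 M libraries (red) and 3 CK libraries (blue) each, with a line at each group mean. In heart every M library lies above the CK libraries and in the exosome table every M library lies below them; the tables were normalized separately, so heights are compared only within a panel.

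The member found in the exosome table was not the one most abundant in heart. miR-34c-5p and miR-34a-5p had 306 and 218 normalized reads over all heart libraries, against 67.4 for miR-34b-3p, yet neither has a row in the exosome table. Of the 64 other heart miRNAs whose mean was within a factor of 2 of that of miR-34c-5p, 56 (87.5%) had a row there. For miR-34a-5p it was 61 of 71 (85.9%), and for miR-34b-3p 62 of 71 (87.3%). Rows of the exosome table went down to a single read in 1 library, with a mean of 0.0693. In heart, miR-34b-3p was accompanied by more than its own number of miR-34c-5p reads in every library, whereas the exosome table listed 784 reads of miR-34b-3p, 9 in M and 775 in CK, and no row for miR-34c-5p.

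The seed-sharing relative miR-449a-5p, a miRNA of ciliated epithelium, was found in heart with 3, 2 and 4 reads in the M libraries and 2, 3 and 22 in the CK libraries. Its log2 fold was -0.64 (p = 0.501 in the authors' deposited table), and 0.89 without CK library 3. It is listed in heart alone, and no arm of miR-449c has a row in either table. A list of 7 markers of ciliated and other epithelium had 6 rows in heart, with summed levels of 158 to 371 normalized reads in the M libraries and 211 to 443 in the CK libraries. Of the 6 markers, 4 were higher and 2 lower in M in the authors' deposited table (median log2 fold 0.04). Their summed means there were 290 in M and 358 in CK, mostly of miR-200c-3p, with 189 in M and 275 in CK. M library 2, the highest for miR-34c-5p, had the lowest sum of the 6 libraries, an order that depends on miR-200c-3p. In the exosome table the 5 listed epithelial markers summed to 949 to 1087 in the M libraries and 1420 to 4379 in the CK libraries, where miR-34b-3p was also higher. Most of these sums came from miR-375-3p, of endocrine and gut epithelium, with 659 in M and 2367 in CK (authors' deposited table, adjusted p = 0.250). Of the 5, 3 were lower and 2 higher in M, where 44.9% of all exosome miRNAs with a finite fold were higher. The higher ones were miR-200b-3p (139 in M, 47.3 in CK) and miR-200c-3p (136 in M, 71.7 in CK). The part of epithelial RNA in the heart and exosome results was not tested.

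Other miRNAs tied to p53 were read in both tables. In heart, 19 arms of 10 miRNAs that p53 is reported to raise or to help mature were listed. Of these, 10 were higher and 9 lower in M in the authors' deposited table. Of all heart miRNAs with a finite fold, 52.4% were higher in M. No arm passed the adjusted threshold, which 0.697% of all heart miRNAs passed. None had an unadjusted p below 0.05, where 4.18% of all heart miRNAs were higher and 3.48% lower in M at that threshold. The median log2 fold was -0.14 over the 15 arms with a finite fold. The other 4 arms were at 0 in 1 of the groups, 3 of them in CK. miR-215, a close relative of miR-192, has no row in either table. The miR-17 to miR-92a cluster is one that p53 is reported to repress. Of its 8 arms listed in heart, 4 were higher and 4 lower in M. None had an unadjusted p below 0.05, beside the same shares of all heart miRNAs. Among exosome miRNAs 13 arms of the first list were present, 4 higher and 9 lower in M. Of all exosome miRNAs with a finite fold, 44.9% were higher in M. miR-22-3p, abundant in heart muscle, had 15100 in M, against 34363 in CK (authors' deposited table, adjusted p = 0.0129). miR-143-3p of smooth muscle had 61235 in M, against 122436 in CK (authors' deposited table, adjusted p = 0.0291). The adjusted threshold was passed by 3.81% of all exosome miRNAs, in either direction. Before adjustment, the authors' deposited table also had p below 0.05 for miR-192-5p (866 in M, 1969 in CK) and miR-145-3p (459 in M, 1125 in CK), both lower in M. Of all exosome miRNAs, 8.17% were lower in M at that unadjusted threshold. The 8 exosome arms of the repressed cluster were split into 4 higher and 4 lower, with none at an unadjusted p below 0.05. The part of p53 in the miR-34 results was not tested.

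Markers of the cell types that heart tissue could hold were read in the authors' deposited table. All 4 fibroblast and mesenchymal markers were higher in M (median log2 fold of the 4 was 2.17, summed means of 373316 in M and 73004 in CK), and 1, miR-21-5p, had an unadjusted p below 0.05. They were too abundant for single libraries to be recovered in both groups. Of 5 leukocyte markers 4 were higher in M (median log2 fold 0.87), and 3 of these had an unadjusted p below 0.05, as did 4.18% of all heart miRNAs in that direction. The fifth, miR-150-5p of mature lymphocytes, was the most abundant and was lower, with 5467 in M and 10399 in CK (unadjusted p = 0.0259, a side on which 3.48% of all heart miRNAs had a p below 0.05), so that the summed means of the list were 7345 in M and 11378 in CK. The 4 others, whose reads were recovered, summed to 1753, 2377 and 1505 normalized reads in the M libraries and to 1142, 788 and 1005 in the CK libraries, so that M library 2 was highest here too. Of 5 cardiac muscle markers 4 were lower, and the 2 with recovered reads, miR-208a-3p and miR-208b-3p, summed to 1030, 413 and 1326 in M and to 1674, 1100 and 1825 in CK. M library 2 was thus lowest in these muscle miRNAs and highest in miR-34c-5p. All 5 cardiac muscle markers were present in heart, with summed means of 312958 in M and 315864 in CK, most of them from miR-1-3p, the marker that was higher (251909 in M, 205731 in CK). miR-133a-3p, another muscle miRNA, had 44805 in M and 87890 in CK (unadjusted p = 0.0178). Of the 3 red cell markers in heart 2 were lower in M, with summed means of 40117 in M and 83707 in CK, mostly of miR-486 (unadjusted p = 0.0313). The liver marker miR-122-5p had 99.9 in M and 16.9 in CK in heart (unadjusted p = 0.150), and the 2 endothelial markers were split, 1 higher and 1 lower. None of these heart markers passed an adjusted p below 0.05, and their part in the miR-34c result was not tested. Of the 4 fibroblast and mesenchymal markers 3 were lower in M in the exosome table, like miR-34b-3p. Of all exosome miRNAs with a finite fold, 44.9% were higher in M. miR-199a-3p had 1967 in M, against 7513 in CK (authors' deposited table, adjusted p = 0.000243). The list's summed means there were 60869 in M and 51795 in CK, mostly of miR-21-5p, and its part in the exosome result was not tested. In that table miR-208a-3p and miR-208b-3p have no row, and the 3 red cell markers had summed means of 297308 in M and 266259 in CK.

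The heart miRNAs outside the family with the pattern over the 6 libraries most like that of miR-34c-5p were miR-152-5p, miR-129-5p and miR-411-5p. Likeness was the root mean square difference between log2 levels, each centred on its own mean, among 269 miRNAs. It was 0.228, 0.274 and 0.289 for these 3 and 0.897 for the median miRNA, while miR-34c-3p and miR-34b-3p had 0.159 and 0.210. miR-152-5p, for example, had 84.9, 221 and 83.8 normalized reads in the M libraries and 41.0, 78.1 and 50.3 in the CK libraries. miR-34a-5p stood at 0.678 from miR-34c-5p, further than the cluster arms and nearer than the median miRNA. Most like miR-34a-5p were miR-15b-3p (0.135), miR-130b-5p (0.162) and miR-342-5p (0.168), with log2 folds of 0.39, 0.18 and 0.09, where the median miRNA had 0.494. Measured from miR-34a-5p, the cluster arms miR-34c-3p, miR-34b-3p and miR-34c-5p stood at 0.617, 0.673 and 0.678, further than that median.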

How the data were processed

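Per the labels' protocols, Trizol RNA went into libraries of the NEBNext small RNA kit. Bowtie2 2.2.6, DESeq 1.30.0 and the build mRatBN7.2 are named in the submitters' processing notes. The sources used here give no trimming, miRNA release, handling of multiple matches or filter. Per the file headers, the authors deposited for each miRNA a signal (mean reads divided by size factors) over all libraries, for CK and for M, the ratio of M to CK, its log2, a p-value and an adjusted p-value. The tables were normalized separately and hold no column of single samples.

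Reads per library were recovered because each mean is a sum of whole reads times 3 fixed steps, 1 per library, searched within a relative tolerance of 1e-14 for means at which 0.01 false solutions or fewer were expected. Of the heart values 88.5% (M) and 86.8% (CK) were low enough to be searched, and 86.1% and 83.4% of the exosome values. Each had exactly 1 solution, and the rest were too abundant. Means simulated from known reads were all solved correctly (354 and 347 in heart, 249 and 275 in exosome), with the steps taken as known. Levels are reads divided by the size factor.

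The main test is the authors' own, with adjusted p below 0.05. limma 3.58.1 (R 4.3.3, trend) was run on log2(level + 1) of all recovered miRNAs with a mean of at least 10. Tested on simulated data (negative binomial reads, dispersion 0.1) with 30 miRNAs moved by 2 on the log2 scale, it found all 30 in each table. False calls were 0 in heart and 3 in exosome. The simulated shift was larger than the limma differences of the tested heart members, 0.24 to 1.31, and every miRNA had the same dispersion. Finding all 30 is therefore not the power of limma for the members, and 0 calls among them do not show that a difference was absent. Shares and ratios used exact two-sided permutation tests (scipy 1.17.1). Alternatives were other scalings, pseudocounts, filters and leaving out each library. Members, lists and the rule for named miRNAs (every member, the miR-449 relatives, p53-list miRNAs at an unadjusted p below 0.05, and the 3 most similar patterns) were chosen with earlier results of these data known. Single cell type markers outside this rule were named after their values had been seen. Labelled samples enter only as numbers per tissue.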

Additional observations from a re-analysis of the deposited data

Results flagged for a closer look

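miR-34b-3p differed in opposite directions in the 2 tables. Its log2 fold of M over CK was 1.31 in heart, with every M library above every CK library. It was -5.22 in the exosome table, with every M library below every CK library. Among miRNAs with recovered reads and a mean of at least 10, 16.8% in heart and 9.31% in the exosome table had the same order. Without M library 2 the heart value was 0.59. In the exosome table its M reads were 0, 0 and 9 in libraries 1, 2 and 3. The difference between the tables was not tested, because they were normalized separately, and neither fold passed the adjusted threshold of the authors' deposited tables.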

How the results depend on the processing

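No paired analysis was possible because no label puts a sample in M or CK, so replicate numbers of heart and serum samples pair nothing in these comparisons. The number of members past the adjusted threshold was 0 in each table, and it was also 0 in limma and with the threshold of the authors' adjusted p moved to 0.10. At an unadjusted p below 0.05 it was 1 in heart (miR-34c-5p) and 1 in the exosome table (miR-34b-3p). limma called 0 members in each table under every pseudocount, filter, scaling and left-out library tried, and its adjusted p for heart miR-34c-5p was 0.0616 to 0.332 over them. Of 59 recomputed folds none changed sign and 5 moved by more than the SD between libraries. These were miR-34b-5p in heart without CK library 2 (log2 1.94), miR-34b-3p and miR-34c-3p in heart without M library 2 (0.59 and 0.76), and miR-34c-3p in heart and miR-34b-3p in the exosome table on the log2(level + 10) scale (0.67 and -3.35). M library 2 held 59.7% and 57.9% of the summed M levels of heart miR-34b-3p and miR-34c-3p. CK library 2 held 68.1% of the summed CK levels of miR-34b-5p. Adding 10 to low levels makes a fold smaller by arithmetic alone. Why single libraries stood apart was not tested. Leaving out M library 3 gave no exosome fold, since miR-34b-3p is then at 0 in M. Ratios between members and the left-out libraries for family shares were added after the data had been seen. Reads of the scarce arms, and 3 libraries a group, limit what could be detected.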
